A study of Homo sapiens with 12 samples.

Results

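The L428-PAX5-only regions are stretches of the genome where the transcription factor PAX5 was found by chromatin immunoprecipitation and sequencing in both libraries of the Hodgkin line L428-PAX5 and in no library of the Burkitt lines Raji and Namalwa. They were chosen from the authors' 6 peak lists, on the hg19 build, by merging peaks that overlapped or touched and keeping each merged region with a peak in L428-PAX5 replicates 1 and 2 and none in Raji or Namalwa. This gave 2043 members of 14465 merged regions (14.1%). They made up 82.1% of the 2487 regions with peaks in both L428-PAX5 libraries, whereas the other 444 held a peak of at least 1 B-cell-line library.

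PAX5 is a paired-domain DNA-binding protein that commits lymphoid progenitors to the B-cell lineage. It does so by switching on genes of the B-cell receptor and its signalling while holding down genes of other blood lineages, and it stays on until the plasma cell stage. Classical Hodgkin lymphoma arises from B cells whose B-cell programme is largely silent, although PAX5 itself is usually still made at a low level. Like other factors of its kind, it is known to occupy partly different sites in different cell types.

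Raji and Namalwa, both from Burkitt lymphoma, carried no treatment. L428-PAX5 is labelled as treated with mifepristone, and PAX5 overproduction was induced 48 h before fixation with 1% formaldehyde. Only L428-PAX5 was induced and treated with mifepristone, so the effects of line, induction and agent cannot be told apart. L428 without induction was not analysed here. Each line had 2 libraries precipitated with 10 µg of a PAX5 antibody and 2 input libraries, 12 samples in all, and the input libraries were not analysed here. Whether a line's libraries stem from different cultures is not stated in the labels, so the spread between them may be technical. No sequence and no gene is given for a region, because the reference tables at hand are on another build than the peak lists.

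Most of the 100 best peaks of both L428-PAX5 lists lay in members. Of the 6201 peaks of replicate 1, 2069 lay in members (33.4%, exact 95% binomial interval 32.2 to 34.6%), and of the 3252 peaks of replicate 2, 2064 did (63.5%, 61.8 to 65.1%). Among the 100 best peaks of each list the numbers were 83 and 85. Most remaining peaks of replicate 1, 3070 of them, lay in regions of that library alone with no B-cell-line peak. Such regions had a median −log10 p of 6.40 in replicate 1, and the corresponding regions of replicate 2 had 6.01. The rule leaves these regions out, and none of the 100 best peaks of either list lay in them. Peaks in regions with any B-cell-line peak made up 17.1% of all replicate 1 peaks, 21.6% of its best 500 and 17% of its best 100. In replicate 2 they made up 17.0, 17.6 and 15%. Presence in the lists chose the members, so these numbers describe the choice and carry no test, and the intervals cover counting error only.

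Members took a similar share of weak and strong L428-PAX5 sites. All 2487 regions with peaks in both libraries were split into 4 strength classes by the mean percentile of their p-value within each list. From the weakest to the strongest class, members made up 81.8%, 85.0%, 80.8% and 80.9% of the regions, and the exact 95% intervals of the weakest (78.6 to 84.8%) and strongest class (77.6 to 83.9%) overlapped. The −log10 p of members had a median of 10.0 in replicate 1, with quartiles of 7.40 and 14.9, and a median of 7.71 in replicate 2, with quartiles of 6.16 and 10.5. The 444 regions with a B-cell-line peak had medians of 11.1 and 7.78. The p-values are the authors' and rank peaks within a list. Their size moves with read depth, which is not given in the sources used here.

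Strong regions were few, both among members and among L428-PAX5 regions with a B-cell-line peak. A −log10 p of at least 10 in both libraries was reached by 494 members (24.2%), at least 20 by 95 (4.65%) and at least 50 by 10. Of the 444 regions with a B-cell-line peak, 117 (26.4%) reached 10, 13 (2.93%) reached 20 and 3 reached 50. Across the members the values of both libraries went together, with a Spearman correlation of 0.615 and a Pearson correlation of 0.747 on the log scale over 2043 regions. The same correlations over the 444 regions with a B-cell-line peak were 0.637 and 0.742. These are descriptions across regions of 1 pair of libraries, and regions are not replicates. Replicate 1 had the higher value in 1550 members (75.9%).

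**Figure D1:**
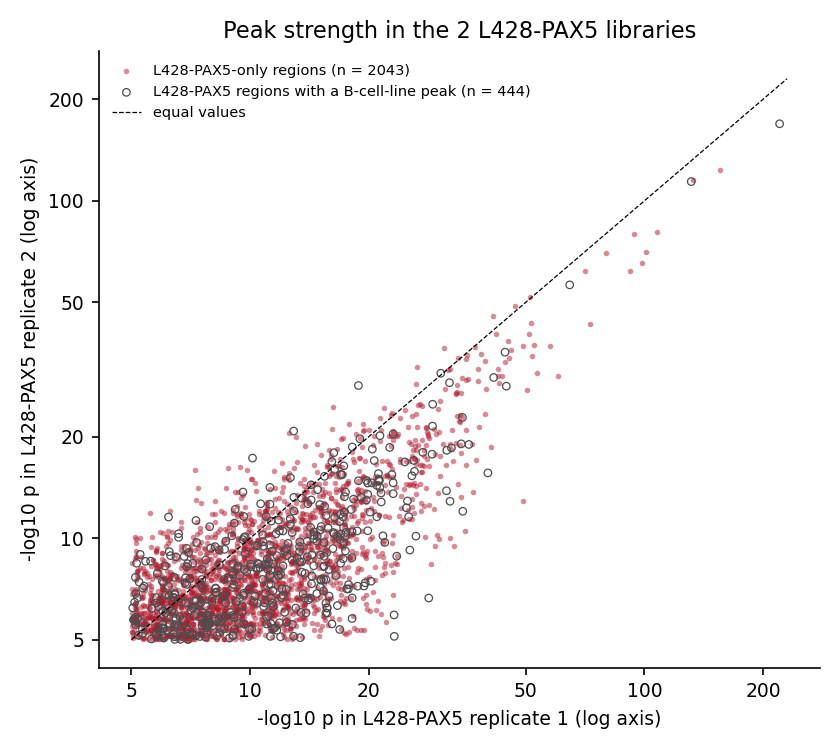
The −log10 p of each region in L428-PAX5 replicate 1 (x axis, log scale) and replicate 2 (y axis, log scale), for the 2043 L428-PAX5-only regions in red and the 444 L428-PAX5 regions with a B-cell-line peak as open circles. The members reach 155.8 in replicate 1 and the regions with a B-cell-line peak 220.3, and most points lie below the dashed line of equal values.

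In members, the peaks of both libraries lay close together. The rule joins only peaks that overlap or touch, so this closeness is partly set by the choice. The centres of the best peaks in a member lay a median of 39 bp apart, and 1656 members (81.1%) had centres within 100 bp. Over the 444 L428-PAX5 regions with a B-cell-line peak the median was 35.75 bp, with 79.5% within 100 bp. A single peak in each library made up 2004 members (98.1%), and 39 held several peaks of a library. Of the 444, 97.1% held a single peak of each L428-PAX5 library. Members had a median width of 638 bp, with quartiles of 495 and 847.5 bp, and covered 1.43 Mb in all. Regions with a B-cell-line peak had a median width of 794.5 bp. Among regions in all 4 B-cell-line libraries and no L428-PAX5 library, 695 in number, the median was 701 bp. A merged region spans the peaks of all its lists, and members join fewer lists than both other sets. These widths therefore cannot be compared as widths of sites. Before merging, the peaks in members had median widths of 580 bp in L428-PAX5 replicate 1 and 522 bp in replicate 2.

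The 10 strongest members included the best member of both lists, on chromosome 5 from 3282786 to 3283576, with a −log10 p of 155.8 in replicate 1 and 123.5 in replicate 2. The next 20 by rank had values of 37.1 to 73.0 in replicate 1 and 30.3 to 48.7 in replicate 2. All 20 were thus far above the medians of the members, and 2 of them had the higher value in replicate 2. The member at chromosome 2, 9918137 to 9918920, had 73.0 and 43.1. Chromosome 2, 239990036 to 239991665, had 51.7 and 43.3. Chromosome 8, 127045420 to 127046563, had 46.9 and 48.7, one of the pair with the higher value in replicate 2. The other of that pair was chromosome 1, 142537416 to 142539734, with 41.2 and 45.5, which was also the widest member (2318 bp). Whether this or any other named region lies in repeated sequence was not checked.

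Some of the 30 strongest members lay on the same chromosome. On chromosome 12 they were at 24351862 to 24352798 (45.0 and 38.5 in replicates 1 and 2) and 24753470 to 24754291 (52.4 and 37.4). These were the only 2 of the 30 with a B-cell-line peak within 10 kb, at 1.215 and 2.456 kb. On chromosome 10, the member at 13514270 to 13515166 (39.5 and 33.5) lay 129 bp from a stronger one at 13515295 to 13516935 (100.7 and 70.3), and the rule counts them as 2 regions because they do not touch. Chromosome 6 held 4 of the 30, at 89855730 to 89856540 (57.7 and 37.2), 137488700 to 137489570 (49.2 and 37.0), 138056689 to 138057917 (42.6 and 31.8) and 169274946 to 169276083 (44.2 and 33.3). Chromosome 2 held 6, the most of any chromosome.

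The rest of these 20 were spread over 7 chromosomes. They lay on chromosome 1 at 212780403 to 212782183 (51.1 and 40.2) and 242388203 to 242389254 (37.1 and 36.8), and on chromosome 2 at 160041874 to 160042927 (41.9 and 40.2) and 111528399 to 111529973 (38.4 and 35.3). Chromosome 5 held one at 41870022 to 41871476 (51.8 and 34.6) and chromosome 10 one at 104153857 to 104154890 (60.5 and 30.3). The last 3 were on chromosome 11 at 71072833 to 71074485 (53.5 and 30.9), chromosome 17 at 31099448 to 31099901 (45.4 and 34.3) and chromosome 19 at 3698020 to 3698878 (46.0 and 36.1). At the other end of the ranking, the weakest member, on chromosome 19 from 21284257 to 21285057, had 5.06 in both libraries, next to the limit of 5 on this scale that all listed peaks exceed. The other 4 of the 5 weakest had values of 5.01 to 5.28. Of these, chromosome 1 held 236447577 to 236448005 and chromosome 3 held 76659752 to 76660022. Chromosome 4 held 10669730 to 10669953, while the last was at 133298108 to 133299088 on chromosome 9. Such a member would leave the set with a slightly stricter threshold.

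Most members lay far from any B-cell-line peak. The median distance to the nearest Raji or Namalwa peak was 106 kb, with quartiles of 30.2 and 289.1 kb. A B-cell-line peak within 10 kb was present for 237 members (11.6%, exact 95% interval 10.2 to 13.1%), and within 1 kb for 31, of which 14 were within 500 bp. For 1048 members (51.3%) the nearest was over 100 kb away, and for 104 (5.09%) over 1 Mb. In the reverse direction, the 695 regions of all 4 B-cell-line libraries with no L428-PAX5 peak lay a median of 105.5 kb from the nearest L428-PAX5 peak, and 9.78% (7.68 to 12.2%) had one within 10 kb. Such distances may depend on the number of peaks in each list, which was not tested. A peak within 10 kb was found for 90 members in Raji replicate 1, 147 in Raji replicate 2, 176 in Namalwa replicate 1 and 65 in Namalwa replicate 2. These lists held 2619, 4960, 6241 and 2107 peaks, so that the longer list of each line gave the larger number.

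**Figure D2:**
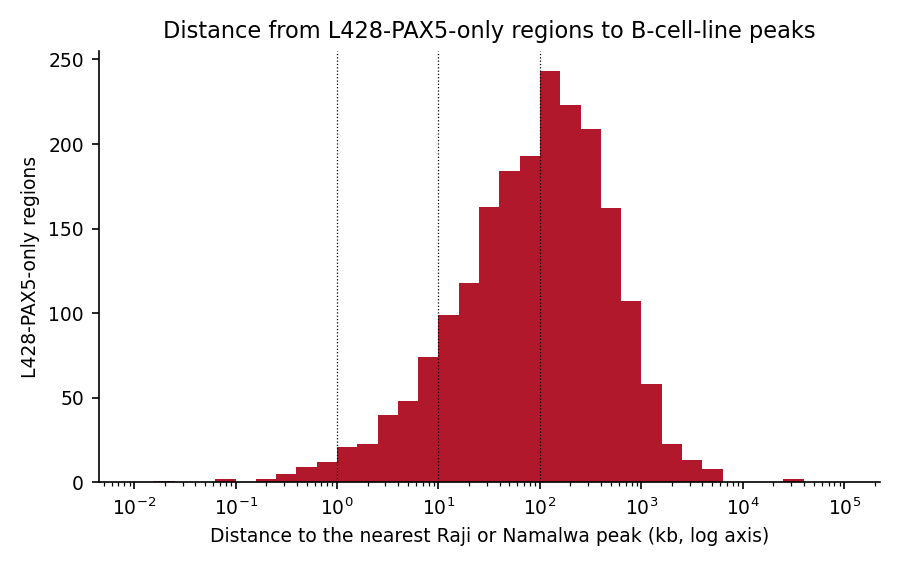
Number of L428-PAX5-only regions (y axis) by distance to the nearest peak of any Raji or Namalwa library (x axis, kb, log scale), with dotted lines at 1, 10 and 100 kb. The distances centre near 106 kb, and 31 of 2043 regions lie within 1 kb.

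By distance, few members stood at the border of the rule. By strength, the 511 members of the weakest of 4 classes had a median −log10 p of 6.35 in replicate 1 and 5.76 in replicate 2. These medians were near the limit of 5 that all listed peaks exceed. The nearest to a B-cell-line peak, on chromosome 8 from 135730985 to 135731436 (−log10 p 10.3 and 5.79), lay 23 bp from a Namalwa replicate 1 peak with 12.0. Next came chromosome 9, 37593588 to 37594600 (6.26 and 5.76), 67 bp from a Raji replicate 1 peak with 5.42. The member on chromosome 20, 42286368 to 42287089 (9.67 and 8.82), was 69 bp from a Raji replicate 1 peak with 7.03. These peaks did not touch the members, yet a small shift of an edge would have joined them. The other 2 of the 5 nearest were on chromosomes 12 (46781516 to 46781948, 218 bp) and 14 (60670845 to 60671239, 244 bp).

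Just outside the rule were 132 L428-PAX5 regions with a peak in a single B-cell-line library. In 126 of them (95.5%) that library was Raji replicate 2 or Namalwa replicate 1, the longer list of its line. The B-cell-line peak was weak, with a median −log10 p of 6.81 and a highest value of 16.7. A further 87 regions had peaks in 2 B-cell-line libraries, 78 in 3 and 147 in all 4. Leaving out either longer list moved the number of members only from 2043 to 2103 (without Raji replicate 2) or 2109 (without Namalwa replicate 1). On the L428-PAX5 side, 2691 regions met the rule without L428-PAX5 replicate 1 and 5116 without replicate 2, since a peak in the remaining library then sufficed.

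The members were spread unevenly over the chromosomes. Their density was highest on chromosome 17, with 124 members or 1.53 per Mb, and reached 1.10 per Mb on chromosomes 8 (161 members) and 20 (69 members), measured to the last listed peak of a chromosome. Chromosome 13 had the lowest density of the autosomes (24 members, 0.209 per Mb). Chromosome X had 17 members or 0.110 per Mb, and chromosome Y had 4 or 0.068 per Mb, the lowest of all. In the 10 Mb windows of chromosome Y that held members, no B-cell-line library had a peak. A single member lay on a contig assigned to chromosome 9 without a position, and no B-cell-line peak was listed on that contig.

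Beside the regions of all 4 B-cell-line libraries with no L428-PAX5 peak, members took a larger share on chromosomes 8, 9 and 6. Chromosome 8 held 7.88% of the members (exact 95% interval 6.75 to 9.13%) and 3.45% of the B-cell-line regions (2.22 to 5.09%). Chromosome 9 held 5.19% (4.27 to 6.24%) and 2.45% (1.43 to 3.89%), and chromosome 6 held 7.10% (6.02 to 8.30%) and 3.45% (2.22 to 5.09%). In the other direction stood chromosome 1, with 7.44% of members (6.34 to 8.66%) and 11.1% of B-cell-line regions (8.84 to 13.7%), chromosome 13, with 1.17% of members (0.754 to 1.74%) and 3.60% of B-cell-line regions (2.34 to 5.26%), and chromosome 10, with 3.18% (2.46 to 4.04%) and 5.76% (4.14 to 7.76%). On these 6 chromosomes the intervals of members and B-cell-line regions did not overlap. The L428-PAX5 regions with a B-cell-line peak held 5.18, 5.63 and 6.98% on chromosomes 8, 9 and 6. On chromosomes 1, 13 and 10 they held 9.46, 0.225 and 2.48%. Each share differed from that of the B-cell-line regions in the same direction as the members' share. Its interval overlapped that of the members and, except on chromosome 13, that of the B-cell-line regions. The differences are thus not shown to be particular to members. The chromosomes were singled out after their values were seen, the intervals take in counting error alone, and the differences were not tested.

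**Figure D3:**
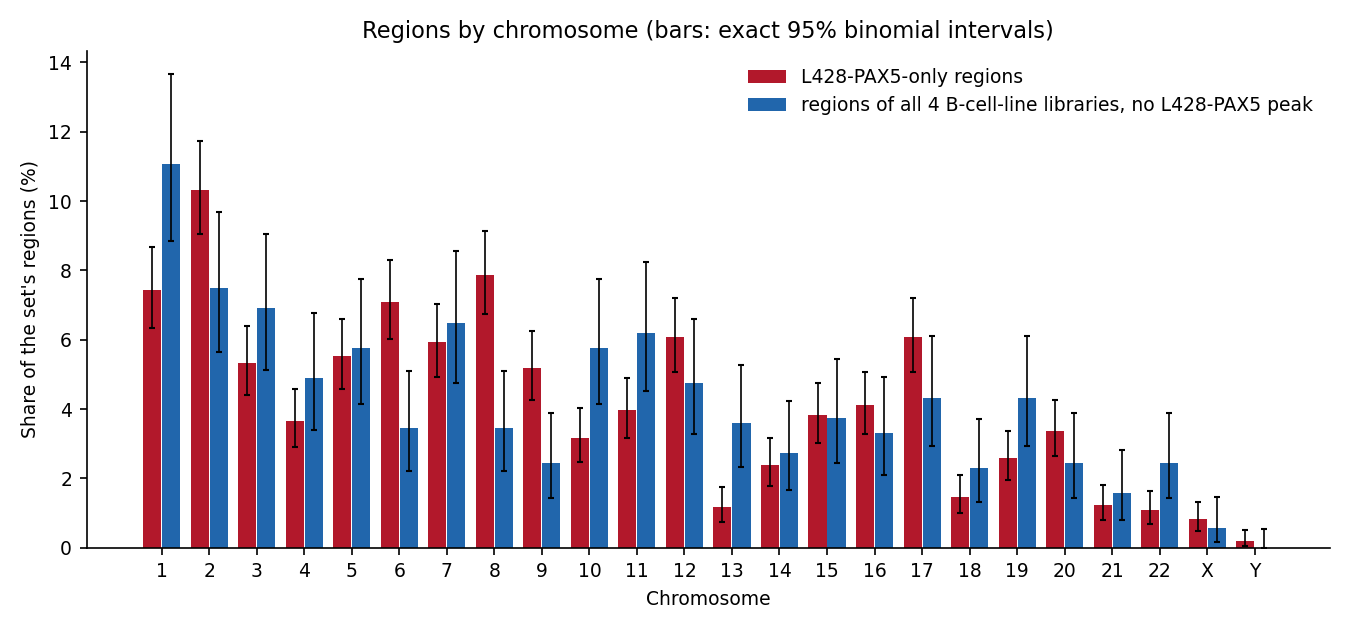
Share of regions on each chromosome (y axis, %) for the 2043 L428-PAX5-only regions in red and the 695 regions of all 4 B-cell-line libraries without an L428-PAX5 peak in blue, with exact 95% binomial intervals as bars. Chromosomes 6, 8 and 9 hold more of the red set and chromosomes 1, 10 and 13 more of the blue set, with intervals that do not overlap.

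The same chromosomes stood out when all peaks of each list were counted, whether in members or not. Chromosome 8 took 6.22 and 7.13% of the peaks of L428-PAX5 replicates 1 and 2, against 4.31 and 4.42% in Raji and 4.36 and 4.56% in Namalwa. Chromosome 13 took 1.18 and 1.14% in L428-PAX5, 2.90 and 2.66% in Raji and 2.84 and 2.71% in Namalwa. On both chromosomes the L428-PAX5 libraries thus did not overlap the B-cell lines. Of the 24 chromosomes, 6 (25%) had both L428-PAX5 shares above all 4 B-cell-line shares, namely 2, 6, 8, 9, 12 and 17. Both shares were below all 4 on 7 (29.2%), namely 1, 10, 11, 13, 14, 18 and 22. The lists contain the members' own peaks, so these counts are no independent support. Shares of a list also sum to 100%, so that more on some chromosomes means less on others. The number of copies of each chromosome was not measured here, and the part it may have in these shares was not tested.

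On chromosome 8 the members were crowded towards the far end. Beyond 120 Mb lay 69 of its 161 members (42.9%). The L428-PAX5 regions shared with a B-cell line were crowded there too, with 13 of 23 (56.5%), while 4 of the 24 B-cell-line regions without an L428-PAX5 peak (16.7%) lay there. In 10 Mb windows over all chromosomes, 291 of 311 windows with any peak held a member, with a median of 5. The fullest window was chromosome 9 from 130 to 140 Mb, with 30 members, 7 shared regions and 0 B-cell-line regions without an L428-PAX5 peak. In that window the lists held 77 and 42 peaks in L428-PAX5, 5 and 12 in Raji and 38 and 10 in Namalwa. Both L428-PAX5 libraries held more peaks there than any B-cell-line library, and Namalwa replicate 1 came close to L428-PAX5 replicate 2. The first 10 Mb of chromosome 17 followed with 28 members and 59, 37, 10, 21, 14 and 4 peaks in the same order of libraries. Both L428-PAX5 libraries again held more than any B-cell-line library, in lists of unequal length.

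Part of the members had another member nearby. Members no more than 100 kb apart were joined into clusters, which placed 766 members (37.5%, exact 95% interval 35.4 to 39.6%) in 315 clusters and left 1277 alone. The share in clusters is not given here for other sets of regions, so whether it is particular to the members is unknown. Neighbouring members on a chromosome lay a median of 560 kb apart, and 39 gaps were 1 kb or less. Clustered members had a median −log10 p of 11.4 in replicate 1 and 7.99 in replicate 2, beside 9.47 and 7.55 for members standing alone. Widths were alike, with medians of 639.5 and 637 bp. With 50 kb and 200 kb in place of 100 kb the clusters held 548 and 1014 members.

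The 15 clusters with 5 or more members held 84 members, and in 7 of these clusters no B-cell-line library had a peak between the first and the last member. The 7 largest had 6 or 7 members over 90.2 to 200.1 kb. A cluster on chromosome 17, from 724899 to 884740, held 7 members and no B-cell-line peak. Its members had a −log10 p of 6.46 to 16.9 in replicate 1 and 6.27 to 12.0 in replicate 2, so that it was built of moderate peaks. The cluster on chromosome 12, from 50505551 to 50641332, also lacked B-cell-line peaks and held 6 members, the strongest at 50505551 to 50506381 with 33.6 and 14.5.

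Other large clusters had B-cell-line peaks between the members. The 7 members on chromosome 9, from 132691762 to 132891892, were interspersed with 3 L428-PAX5 regions shared with a B-cell line, and all 5 B-cell-line peaks there were of Raji, 1 in replicate 1 and 4 in replicate 2. On chromosome 8, 6 members from 128976216 to 129119028 surrounded 1 Raji replicate 2 peak. This cluster held strong members at 129005389 to 129005855 (35.4 and 34.8) and 129082407 to 129083679 (38.2 and 21.4). A further cluster on chromosome 8, from 144627959 to 144718114, had 6 members around a region that all 4 B-cell-line libraries shared. Chromosome 7, from 116270818 to 116445671, had 6 members and 2 B-cell-line peaks.

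On chromosome 16, 2 clusters stood close together. The first, from 11058032 to 11099578, held 5 members and no B-cell-line peak, with values up to 24.1 and 16.1. The second, from 11225464 to 11343558, held 6 members with values up to 19.3 and 11.8, and 1 Raji replicate 2 peak. The most compact of the 15 was also on chromosome 16, from 33864882 to 33902346, with 5 members in 37.5 kb and values up to 35.7 and 29.6. No peak was removed for lying in repeated sequence, and whether this cluster lies in such sequence was not checked.

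**Figure D4:**
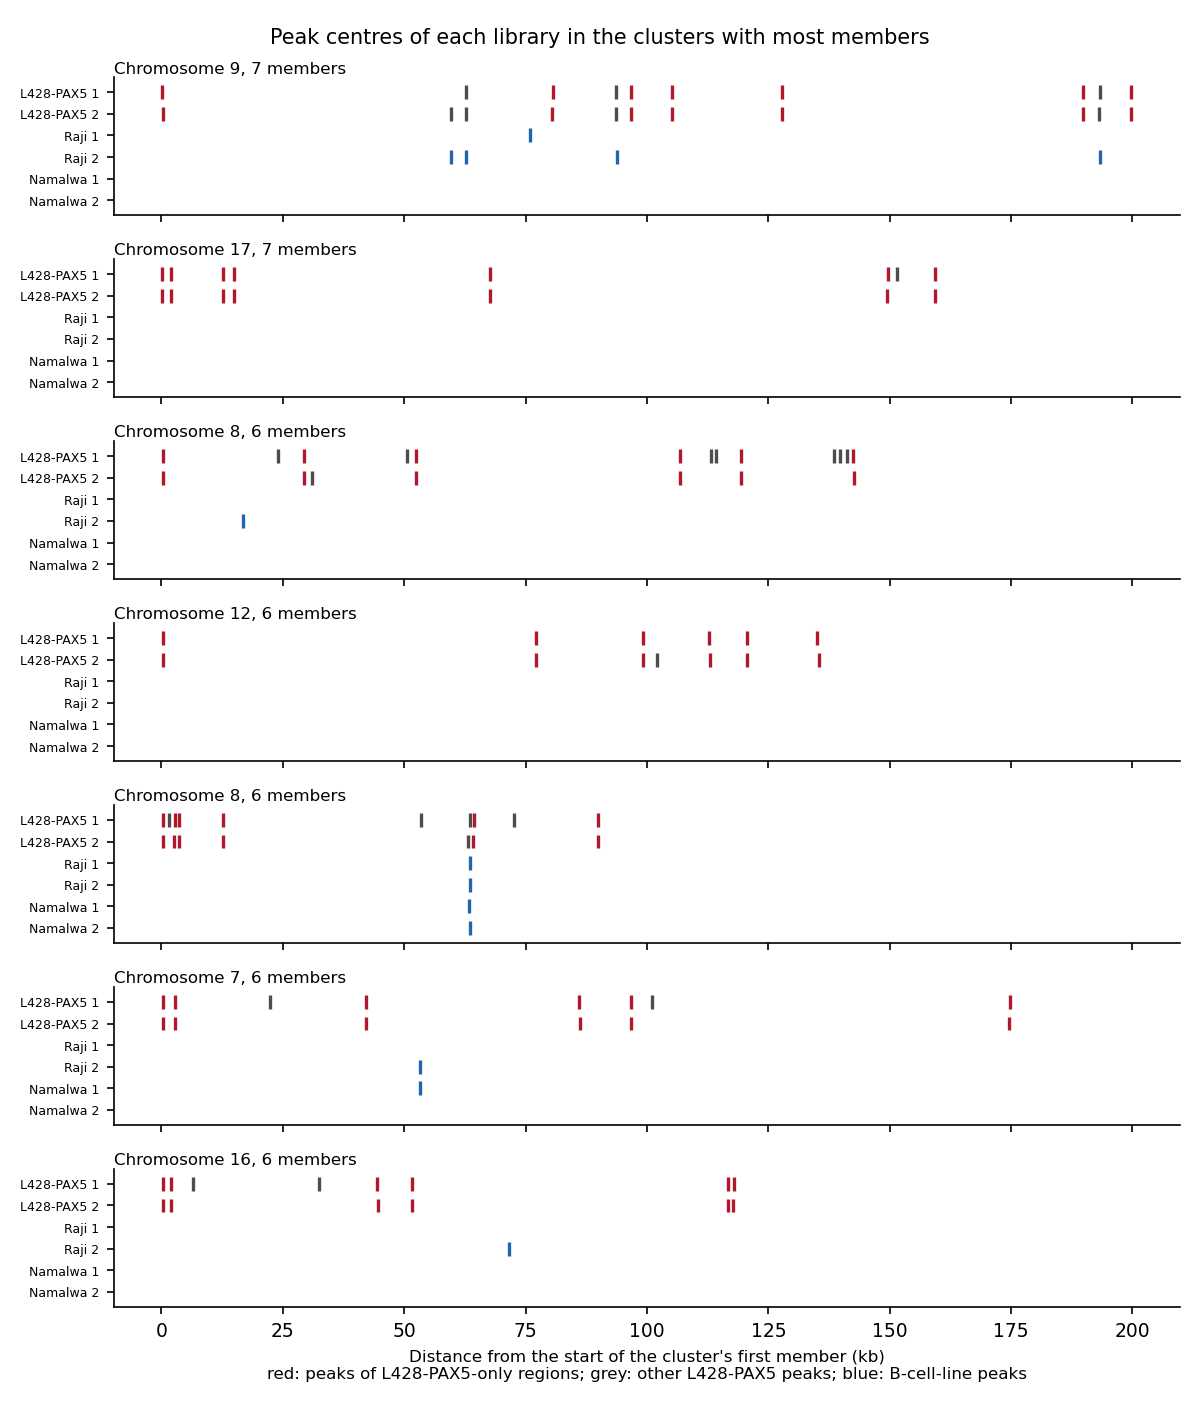
Peak centres in the 7 clusters with 6 or 7 members, by distance from the start of the first member (x axis, kb), with a row for each library; red marks are peaks of L428-PAX5-only regions, grey marks other L428-PAX5 peaks and blue marks B-cell-line peaks. The clusters on chromosomes 17 and 12 hold no blue mark, and the one on chromosome 9 holds 5.

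Within 5 Mb of the far end of chromosome 2 lay 8 members and the strongest L428-PAX5 region of all, which is not a member. That region, from 240513807 to 240515751, had a −log10 p of 220.3 and 169.2 in L428-PAX5 and was kept out of the set by a Namalwa replicate 1 peak with 11.6. The member at 241137068 to 241138409 had 94.4 and 79.9, the member at 239990036 to 239991665 is given above, and the third, at 240064350 to 240065038, had 25.5 and 14.5. The other 5 had values of 5.06 to 15.4. Single B-cell-line peaks could thus decide membership of very strong L428-PAX5 sites.

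Near chromosome ends lay a larger share of the stronger members than of the weaker ones, a trend across regions that was not tested. Of all members, 270 (13.2%, exact 95% interval 11.8 to 14.8%) were within 5 Mb of an end, beside 12.8% (9.87 to 16.3%) of the shared L428-PAX5 regions and 9.93% (7.81 to 12.4%) of the B-cell-line regions without an L428-PAX5 peak. When the members were split into 4 classes by strength, the shares from weakest to strongest were 9.98%, 11.9%, 13.1% and 17.8%. The interval of the strongest class (14.6 to 21.4%) lay above that of the weakest (7.52 to 12.9%). The share by strength is not given here for other sets of regions, so whether the trend is particular to the members is unknown. Among the 30 strongest members, 9 were near an end. The ends with most members were the far end of chromosome 11 (19 members), the far end of chromosome 8 (18) and both ends of chromosome 17 (17 each).

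Over whole lists, nearness to chromosome ends did not separate L428-PAX5 from both B-cell lines. The share of peaks within 5 Mb of an end was 13.6 and 12.0% in L428-PAX5, 9.16 and 8.55% in Raji and 11.6 and 13.8% in Namalwa. The Namalwa libraries thus overlapped L428-PAX5, and Raji was lower than both. The mean was 12.8 ± 1.12% (SD, n = 2) in L428-PAX5 and 10.8 ± 2.42% (SD, n = 4) in the B-cell-line libraries. That SD of 2.42 takes in the difference between Raji (8.86 ± 0.435%, SD, n = 2) and Namalwa (12.7 ± 1.53%, SD, n = 2). L428-PAX5 was higher by 2.02 percentage points (two-sided exact permutation p = 0.333 over 15 choices of 2 libraries). The smallest p that the design allows is 0.067, and most of the choices split the libraries of a line.

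**Figure D5:**
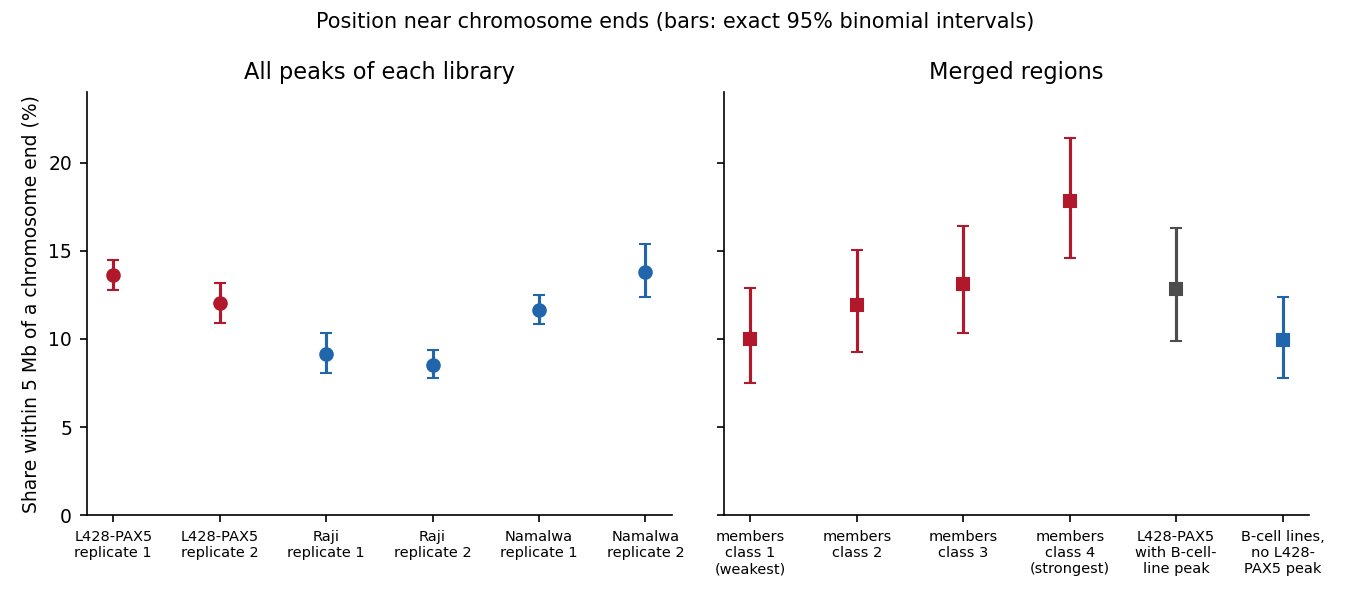
Share within 5 Mb of a chromosome end (y axis, %) for all peaks of each library (left) and for merged regions (right: the members in 4 strength classes, the L428-PAX5 regions with a B-cell-line peak and the B-cell-line regions without an L428-PAX5 peak), with exact 95% binomial intervals as bars. The members rise from 9.98% in the weakest to 17.8% in the strongest class, while the L428-PAX5 and Namalwa libraries overlap.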

How the data were processed

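The 6 lists deposited by the authors, 1 per immunoprecipitated library and not pooled, give each peak a p-value. The peak names carry PeakRanger, per the deposited lists. Per the submitters' processing notes, the build was hg19, and BWA 0.5.9-r16 and CASAVA 1.3 and 1.8 were used. Not given in the sources used here are the caller's settings, its use of input, any adjustment of the p-value and whether starts count from 0 or 1. Groups came from the sample titles.

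Strength is −log10 of the authors' p-value, or its percentile within a list, taking the best peak of a library in a region. Positions are those of the lists, and a chromosome was taken to end at its last listed peak. No listed peak was removed here for lying in repeated sequence or in stretches prone to artefacts. Peaks on contigs without a chromosome position counted as not near an end. Shares carry exact (Clopper-Pearson) 95% intervals. The 1 test was an exact permutation over libraries. Named regions were the 30 members with the highest mean percentile, the largest clusters (7, because of ties, and others of 5 members chosen after their values were seen), the widest, the 5 nearest to a B-cell-line peak and the 5 weakest. The 10 Mb windows, the end of chromosome 2 and the better 50% of the L428-PAX5 lists alone were also chosen after the values were seen. Members and lists were chosen with earlier results of these data known. Planned motif searches and gene lists were not run for lack of an hg19 reference. The scripts were tested on simulated lists. They ran in Python 3.11.15 with scipy 1.17.1, pandas 2.3.3, numpy 2.4.6 and matplotlib 3.10.9.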

Additional observations from a re-analysis of the deposited data

How the results depend on the processing

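Of 57 recomputed values, 43 stayed within 1.5 times the count or within the interval, or kept their direction, and 14 did not. Fewer peaks enter some settings and fewer libraries others, by construction. In the better 50% of each list there were 1091 members, 302 of them in clusters, and 7.15% had a B-cell-line peak within 10 kb. Lists of equal length gave 1102 members, 15.6% of them within 5 Mb of an end. The better 50% of the L428-PAX5 lists against whole B-cell-line lists, a setting chosen after seeing the data, gave 1037 members, 15.0% near an end. With peak centres within 200 bp, 13.1% had a B-cell-line peak within 10 kb. Within 1, 2 and 10 Mb of an end lay 3.18, 6.07 and 23.7% of the members. With single libraries left out there were 2046 to 5116 members (highest without L428-PAX5 replicate 2), 12.1 to 13.8% near an end and 8.39 (without Namalwa replicate 1) to 12.4% with a B-cell-line peak within 10 kb, 10.0% without Raji replicate 2.

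The difference in the share of peaks near an end stayed positive in 13 alternatives (0.594 to 3.45 percentage points), with exact permutation p of 0.2 to 0.8. With the replicate number as a block it was 2.02 with an exact permutation p of 0.444 over 9 choices. Libraries numbered 1 were above their line's mean in L428-PAX5 and Raji and below it in Namalwa. A single measure over so few lines can neither show nor exclude pairing by number. Read depth per library is unknown, and a site absent from a list may lie below its threshold.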

Other observations

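The regions found in 1 L428-PAX5 library and no B-cell-line library numbered 3699, and 13.3% of them (exact 95% interval 12.2 to 14.4%) lay within 5 Mb of a chromosome end. Only 1 of the 3065 regions of replicate 1 alone reached a −log10 p of 20, and none of the 634 of replicate 2 alone did. Of the 311 windows of 10 Mb, 63 held members and none of the 695 B-cell-line regions, and 7 held such B-cell-line regions and no member. The 2043 members outnumber these regions, so more windows would lack the smaller set by size alone. How many windows size alone would give was not computed, so these counts do not show separate locations.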
